A study of Mus musculus with 2 samples.

Results

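The myocyte enhancer factor 2 (MEF2) family consists of 4 genes in the mouse, Mef2a, Mef2b, Mef2c and Mef2d, and all 4 were described here out of 21829 protein-coding genes of the annotation. The genes were chosen by family name and the rule used no measured value, but earlier results of these data were known at the time. For each gene the territory was the gene body and 50 kb on each side, and a promoter window was 1 kb on each side of each start of a protein-coding transcript. Starts with no more than 1 kb between neighbours were joined into a start group.

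MEF2 proteins are MADS-box transcription factors that bind an A/T-rich element as dimers. Calcium signals act on them: class IIa histone deacetylases hold MEF2 targets silent, and calcineurin, CaM kinases and the kinases p38 and ERK5 relieve that hold or raise MEF2 activity. The family is known for muscle differentiation and, in neurons, for activity-dependent survival and synapse number; Mef2a and Mef2d are the members best known in cerebellar granule neurons, Mef2c is linked to a human neurodevelopmental disorder, and Mef2b is best known in germinal centre B cells.

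The data were DNase-seq of whole cerebellum from 2 male mice of strain B6CASTF1/J, the first-generation offspring of a cross between the C57BL/6J and CAST strains, at 36 days of age, with no treatment named. DNase I cuts accessible DNA in isolated nuclei, a peak is a stretch rich in cuts, and a footprint is a short protected stretch in which cuts are fewer. The animals, replicates 1 and 2, formed 1 group. The labels give them separate biological replicate numbers and tissue samples but the same donor entry, and do not say what that entry stands for, so their spread may be partly technical, and no test across animals was possible. Accessibility was measured, not transcription, and in bulk tissue fewer cells of a type and less accessibility per cell cannot be told apart.

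Replicate 1 had 140127 peaks and 342409 footprints, and replicate 2 had 114404 peaks and 262603 footprints. Peak heights are the authors' own values, whose scaling is not stated, so each was placed among the peaks or promoters of the same animal. The median height of a peak was 0.764 in replicate 1 and 0.899 in replicate 2. The median height of the highest peak at a promoter with a peak was 9.10 in replicate 1 and 6.65 in replicate 2. Among marker genes, 6 of 6 of granule cells carried a promoter peak in each animal, as did 3 of 4 of Purkinje cells (Pcp2 had none) and 2 of 3 of interneurons. Of markers of astrocytes and Bergmann glia, of the oligodendrocyte lineage and of endothelium, 3 of 3 each had one in replicate 1, and 2, 2 and 1 of 3 in replicate 2. None of 4 microglial and none of 4 muscle markers had one in either animal. Over all protein-coding genes the share was 67.0% in replicate 1 and 63.5% in replicate 2, and with 3 to 6 markers a type these counts describe the tissue only roughly. With genes lacking a peak at 0, the median promoter height of granule cell markers was 16.04 in replicate 1 and 10.28 in replicate 2. It was 0.951 and 0.711 for Purkinje cells, and 0.7154 and 0.5925 for interneurons, in replicates 1 and 2. It was 0.515 and 0.375 for astrocytes and Bergmann glia, 0.981 and 0.632 for the oligodendrocyte lineage, and 0.320 and 0 for endothelium.

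In each animal all 4 MEF2 genes carried a promoter peak. Against the 67.0% and 63.5% of all protein-coding genes in replicates 1 and 2, and 62.9% in both, a promoter peak alone does not set the family apart. The genes differed in the height of that peak, in which start carried it, and in how many peaks lay around it. Mef2a, Mef2b and Mef2d each had a promoter peak higher than at least 79.6% of promoters with a peak, whereas that of Mef2c exceeded 27.2% of them in replicate 1 and 24.6% in replicate 2.

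Some of the sequences behind these values are given first, because the position of a start or of a motif within a peak carries much of what follows. They are from GRCm38 (mm10), printed 5′ to 3′ in lower case, with matches to the searched motifs in capitals. The alleles of the hybrid animals themselves, including those from CAST, were not examined, and they may differ from the letters shown. The motifs were the MEF2 consensus and the CTCF consensus (by name), the cyclic AMP response element CRE (TGACGTCA), AP-1 (TGACTCA), the GC box (GGGCGGG), the CCAAT box (CCAAT), an E-box (CACGTG), a NeuroD-type E-box (CAGATGG), the octamer (ATGCAAAT), the NRF1 element (GCGCATGCGC), the ETS element (CCGGAAG) and the NFI element (TGGCNNNNNGCCA), each on both strands. Overlapping matches of different motifs share their capitals. A match describes letters, not binding. All motifs other than the MEF2 consensus were chosen after values or sequences were seen. The share of all peaks that hold such a motif therefore does not measure how unlikely its presence here is. The sequences at the starts of Mef2a, Mef2b and Mef2d are the parts of the peaks that lie before the start, on the strand of the gene; that of Mef2c is a peak in an intron of its longer transcripts. All are shown because they differ in which motifs they hold.
Mef2a, upstream of its start (chr7:67372859-67372960, minus strand): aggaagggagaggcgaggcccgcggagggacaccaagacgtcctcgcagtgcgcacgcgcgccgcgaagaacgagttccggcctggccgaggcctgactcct
Mef2b, upstream start, shared with Rfxank and Borcs8 (chr8:70139201-70139440, plus strand): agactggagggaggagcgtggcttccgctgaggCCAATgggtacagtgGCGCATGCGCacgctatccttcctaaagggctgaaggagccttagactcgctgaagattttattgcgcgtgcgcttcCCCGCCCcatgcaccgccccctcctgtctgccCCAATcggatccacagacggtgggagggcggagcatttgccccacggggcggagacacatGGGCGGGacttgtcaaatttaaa
Mef2b, downstream start (chr8:70152621-70152777, plus strand): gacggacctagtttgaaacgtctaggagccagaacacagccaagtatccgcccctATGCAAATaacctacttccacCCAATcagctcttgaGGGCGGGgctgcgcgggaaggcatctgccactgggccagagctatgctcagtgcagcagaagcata
Mef2c, second start group (chr13:83523781-83523980, plus strand): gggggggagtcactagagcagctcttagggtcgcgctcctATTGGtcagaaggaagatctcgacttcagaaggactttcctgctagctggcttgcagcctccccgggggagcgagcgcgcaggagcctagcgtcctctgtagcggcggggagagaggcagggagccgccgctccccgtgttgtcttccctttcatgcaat
Mef2d, only start group (chr3:88142181-88142371, plus strand): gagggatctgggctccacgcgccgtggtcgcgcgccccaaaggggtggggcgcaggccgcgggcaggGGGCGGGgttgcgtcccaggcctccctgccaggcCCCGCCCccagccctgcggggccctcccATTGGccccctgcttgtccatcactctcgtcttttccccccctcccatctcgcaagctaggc

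The upstream Mef2b sequence held 1 NRF1 element, 2 GC boxes and 2 CCAAT boxes, and the NRF1 element and the first GC box lay with their centre in a footprint in both animals. An NRF1 element occurred in 0.316% of all peaks in replicate 1 and 0.3575% in replicate 2. These shares are over all peaks, not promoter peaks alone. The NRF1 element and the octamer were searched for after these sequences were seen, so finding them here is no rare event. The downstream Mef2b sequence held an octamer, present in 0.600% and 0.750% of all peaks in replicates 1 and 2, and its centre was in no footprint in either animal. The octamer is known as a target of POU factors, among them those of B cells. In the Mef2d sequence both GC boxes and the CCAAT box had their centre in a footprint in both animals. The CCAAT box began at 88142310, past the end of the replicate 2 peak at 88142300. The Mef2c sequence held 1 CCAAT box, in a footprint in replicate 2 and not in replicate 1, and the Mef2a sequence held none of the motifs. GC boxes occurred in 10.8% of all peaks in replicate 1 and 11.02% in replicate 2, and CCAAT boxes in 20.4% and 23.35%, so they are common letters.

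Mef2a, which encodes a family member of granule neurons and of heart and skeletal muscle, lies on the minus strand of chr7:67231163-67372858 (ENSMUSG00000030557) and is 141.7 kb long. Its 5 complete coding transcripts share 1 start, at position 67372858, in a window with 179 CpG dinucleotides, more than in 97.2% of genes. The peak over that start had a height of 22.6 in replicate 1 and 12.3 in replicate 2, 17.5 ± 7.28 (SD, n = 2). It was higher than 98.9% of all peaks and 88.9% of accessible promoters in replicate 1, and than 97.5% and 80.0% in replicate 2. A second peak upstream, at chr7:67373101-67373540, had heights of 8.68 in replicate 1 and 6.02 in replicate 2. It held more footprints, 10 in replicate 1 and 7 in replicate 2, than the 4 that lay in the higher peak in each animal. It was also wider, at 440 bases in replicate 1 and 420 in replicate 2, against 180 for the higher peak in each animal. The promoter of Mef2a was thus among the taller ones in both animals, by less in replicate 2. A coding transcript with an incomplete 5′ end began 106.7 kb downstream. Its window had no peak and no stretch at a false discovery rate of 0.05 or less in either animal. Footprints at starts were counted only inside promoter peaks, so its window was not searched for them.

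The Mef2a start itself lies inside a MEF2 consensus, CTATTTTTAG at chr7:67372851-67372860, shown on the plus strand with 10 bases on each side because it is the family's own element.
Mef2a start: cacaccggggCTATTTTTAGgagtcaggcc
The site lay in the tallest Mef2a peak in both animals and touched no footprint in either. Over all peaks, the centre of a MEF2 consensus was in a footprint for 7.01% of sites in replicate 1 and 8.02% in replicate 2, against 89.3% and 80.2% for the CTCF consensus and 68.7% and 75.0% for the CRE, so a MEF2 site without a footprint was the usual case in these lists.

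Mef2b (ENSMUSG00000079033, plus strand of chr8:70139711-70167488) is 27.78 kb long and has 2 start groups with unlike accessibility. The upstream start, at 70139711, belongs to 1 coding transcript and shares its window with Rfxank, a subunit of the RFX complex of MHC class II promoters, and Borcs8, a subunit of a lysosome-positioning complex. The tallest peak there, chr8:70139201-70139440 in replicate 1, had a height of 24.6 in replicate 1 and 16.2 in replicate 2, 20.4 ± 5.97 (SD, n = 2), higher than 99.2% and 99.1% of all peaks. The start nearest to that peak is that of Rfxank, not that of Mef2b. A second peak, over the Mef2b start, was lower, at 4.79 in replicate 1 and 4.12 in replicate 2. The high value listed for Mef2b is therefore a value of a window held by 3 genes.

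The other start group of Mef2b, at 70152778 and 70152781, lies 13.07 kb downstream, belongs to 4 coding transcripts, and shares its window with no other gene. Its peak had a height of 1.01 in replicate 1 and 0.997 in replicate 2, near the middle of each list (58.5% and 53.3% of all peaks were lower). It held 2 footprints in replicate 1 and 1 in replicate 2, and the lowest false discovery rate in it was 6.4e-06 in replicate 1 and 3.2e-03 in replicate 2. In each animal the start that is Mef2b's alone thus had a peak near the middle of all peaks and low for a promoter.

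Mef2c (ENSMUSG00000005583, plus strand of chr13:83504034-83667080) is the longest member, at 163.0 kb, and has 23 coding starts in 8 groups, of which groups 7 and 8 are transcripts with an incomplete 5′ end. The first group, at 83504034 to 83504240, belongs to 6 transcripts. It had no peak and no stretch at a false discovery rate of 0.05 or less in either animal. Footprints were counted only inside promoter peaks, so none could be listed for it. The second group, 19.44 kb downstream, has 9 starts between 83523473 and 83524891 and held 4 peaks in each animal. Their heights in replicate 1 were 2.56, 0.748, 3.26 and 0.358 in genomic order, and in replicate 2 they were 2.07, 0.928, 2.48 and 0.267. Both animals thus gave the same order of the 4 heights, and the 4 peaks together held 10 footprints in replicate 1 and 11 in replicate 2.

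The tallest of these Mef2c peaks, at 2.87 ± 0.551 (SD, n = 2), was low for a promoter: among genes in the same of 5 classes of promoter CpG content it exceeded 18.8% of accessible promoters in replicate 1 and 17.7% in replicate 2, where the medians were 11.7 and 8.13. It still exceeded 81.5% of all peaks in replicate 1 and 77.6% in replicate 2. Of the other 6 groups, group 4 had a peak of height 0.316 in replicate 2 and none in replicate 1, and the other 5 had no peak in either animal. Accessibility at Mef2c starts was therefore found at 1 of 8 groups in both animals.

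Mef2d (ENSMUSG00000001419, plus strand of chr3:88142372-88172086), the other member best known in granule neurons, is 29.71 kb long and has 3 starts in 1 group. Its peak, chr3:88142181-88142400 in replicate 1, had a height of 18.2 in replicate 1 and 12.3 in replicate 2, 15.2 ± 4.15 (SD, n = 2), higher than 79.6% and 79.9% of accessible promoters. It held 6 footprints in replicate 1 and 2 in replicate 2. A peak inside the gene at chr3:88143481-88143720 had 2.99 in replicate 1 and 2.98 in replicate 2, above 80.3% and 81.0% of the peaks of each list.

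By promoter height the order was Mef2b, Mef2a, Mef2d and Mef2c in both animals. Within each animal, Mef2b exceeded 92% of accessible promoters in replicate 1 and 91.97% in replicate 2. The shares were 88.9% and 80.0% for Mef2a and 79.6% and 79.9% for Mef2d. Mef2a and Mef2d were thus apart in replicate 1 and almost level in replicate 2, at 12.32 and 12.29. The SDs of Mef2b, Mef2a and Mef2d overlapped. Each height was greater in replicate 1, so these SDs also hold any difference in scale between the animals. Mef2c lay below the other 3 in each animal by more than the spread of any of them. With the upstream Mef2b window set aside as shared, the start of Mef2b alone would rank below that of Mef2c in both animals.

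**Figure D1:**
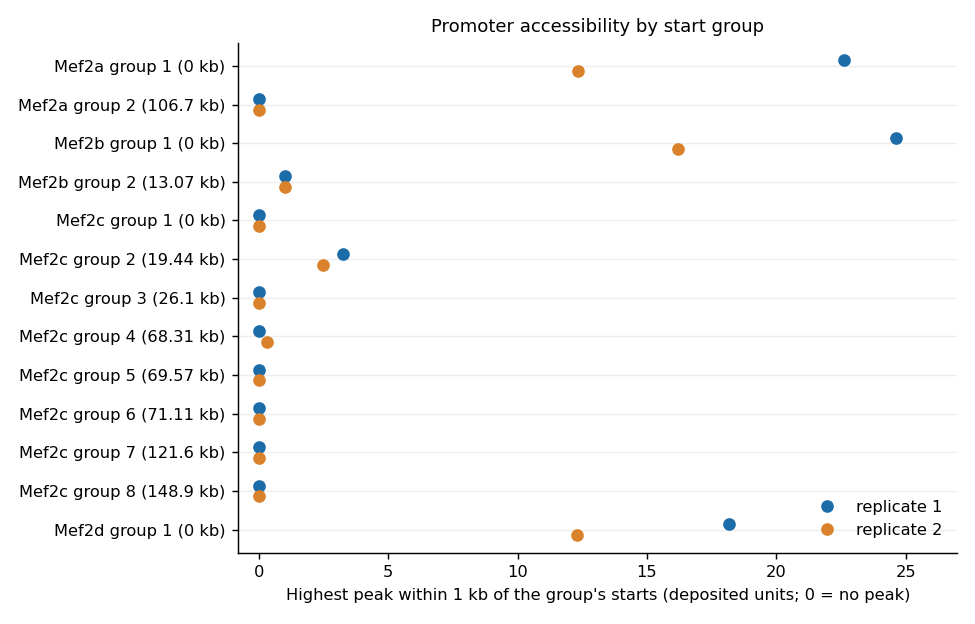
Height of the tallest peak within 1 kb of each start group (horizontal axis, deposited units, 0 where no peak was listed) for replicates 1 and 2, with the distance of the group from the gene's first group in parentheses. Mef2a, Mef2b and Mef2d have a first group between 12.3 and 24.6, Mef2c has a peak in both animals only at its second group, and most alternative starts are at 0.

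The surroundings of the genes differed as well. Mef2d had the densest territory: 36 peaks in replicate 1 and 31 in replicate 2, or 27.75 and 23.9 per 100 kb, against a median over all genes of 7.74 and 6.70. Its peaks outside all promoter windows, called distal here, numbered 33 in replicate 1 and 29 in replicate 2, a density above that of 98.5% and 99.8% of genes. Its footprints, 132 in replicate 1 and 113 in replicate 2, were denser than in 97.0% and 99% of genes. The peaks were on both sides of and within the gene, with 7 upstream in each animal, 14 and 13 over the gene body, and 16 and 11 downstream in replicates 1 and 2, where a peak across an end counts on both sides. Of the 36 and 31, the nearest protein-coding start was that of Mef2d for 26 and 25.

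The tallest peak of the Mef2d territory was not at its promoter. It lay 5.935 kb past the 3′ end, at chr3:88178021-88178240, with a height of 26.9 in replicate 1 and 18.5 in replicate 2, which was 1.48 and 1.503 times the promoter peak. It stood 0.346 kb from the start of 1700113A16Rik, a noncoding RNA read from the other strand towards Mef2d. A neighbouring peak at chr3:88177681-88177860, with 17.1 in replicate 1 and 11.7 in replicate 2, lay over that start, with its midpoint 14 bases from it. These are thus tall peaks at the start of an antisense RNA, outside the windows of coding starts. A further tall peak, at chr3:88138361-88138540, had its midpoint at -3.92 kb from the 5′ end of Mef2d and reached 10.7 in replicate 1 and 11.3 in replicate 2. Among genes with a promoter peak, 37.2% in replicate 1 and 34.6% in replicate 2 had a distal peak taller than their own promoter, as Mef2d and Mef2c did in both animals and Mef2a and Mef2b in neither.

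The sequences of these 3 Mef2d peaks are shown because the last holds a CRE, the element of the activity-regulated factor CREB, and the one at the antisense start holds an ETS element and 2 E-boxes.
Mef2d, tallest distal peak (chr3:88178021-88178240, plus strand): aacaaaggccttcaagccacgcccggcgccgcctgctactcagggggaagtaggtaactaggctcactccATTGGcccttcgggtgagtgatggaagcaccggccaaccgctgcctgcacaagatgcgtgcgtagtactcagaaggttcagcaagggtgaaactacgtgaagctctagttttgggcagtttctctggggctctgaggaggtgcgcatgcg
Mef2d, antisense RNA start (chr3:88177681-88177860, plus strand): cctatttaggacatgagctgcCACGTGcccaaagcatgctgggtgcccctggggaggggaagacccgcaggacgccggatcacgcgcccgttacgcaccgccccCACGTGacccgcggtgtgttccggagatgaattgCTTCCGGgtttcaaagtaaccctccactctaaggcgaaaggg
Mef2d, upstream distal peak (chr3:88138361-88138540, plus strand): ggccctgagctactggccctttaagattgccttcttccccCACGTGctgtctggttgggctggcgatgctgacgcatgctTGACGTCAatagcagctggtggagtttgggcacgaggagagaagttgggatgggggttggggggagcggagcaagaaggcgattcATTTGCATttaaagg
The CRE had its centre in a footprint in both animals, and a CRE occurred in 0.657% of all peaks in replicate 1 and 0.800% in replicate 2. The ETS element and the second E-box at the antisense start also had their centre in a footprint in both animals. The octamer and the E-box beside the CRE did not in either animal. ETS elements occurred in 3.11% of all peaks in replicate 1 and 3.50% in replicate 2, and the CACGTG E-box in 4.24% of the peaks in each animal.

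The downstream flank of Mef2d also held the lincRNA gene Gm3764 and within it the hairpin of miR-9-1 (chr3:88215598-88215686), 43.51 kb past the 3′ end of Mef2d; miR-9 is a brain-enriched microRNA. A peak over the hairpin in replicate 1 had a height of 2.88, and its counterpart in replicate 2, of height 1.95, began just past the hairpin. Both stood below the promoter of Mef2d.

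Mef2c had 25 peaks in replicate 1 and 31 in replicate 2, and Mef2c was the nearest protein-coding gene for all of them. Of these, 21 in replicate 1 and 26 in replicate 2 were distal, a density above that of 74.3% and 91.7% of genes, while its 59 and 61 footprints were near the middle (50.8% and 62.2% of genes had fewer per length). Most of these peaks were low, with a median height of 0.683 in replicate 1 and 0.602 in replicate 2, against 2.75 and 2.39 in the Mef2d territory. The median peak of the Mef2c territory was thus below the median of its own animal's list in both animals, and that of the Mef2d territory above it. Downstream of the Mef2c 3′ end there was no peak for 45.7 kb in either animal, and then 6 peaks in replicate 1 and 8 in replicate 2.

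The tallest peak of the Mef2c territory lay in that downstream group, at chr13:83715061-83715280, 47.98 kb past the 3′ end. Its height was 17.3 in replicate 1 and 14.5 in replicate 2, which was 5.32 and 5.85 times that of the Mef2c promoter and above 97.5% and 98.5% of all peaks, with 5 footprints in each animal. The nearest noncoding start is that of the lincRNA C130071C03Rik, 6.21 kb away; that gene begins 54.3 kb past the end of Mef2c, outside its territory, and spans the hairpin of miR-9-2. A further peak at chr13:83716981-83717200 had 6.21 in replicate 1 and 4.18 in replicate 2. The peak is in the Mef2c territory by position, and whether it acts on Mef2c, on the lincRNA or on neither was not tested.

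An intronic Mef2c peak, at chr13:83654981-83655140, differed more between the animals, with 7.51 in replicate 1 and 2.91 in replicate 2, or above 91.1% and 80.6% of the peaks of each list. It is shown with the downstream peak because it holds a CTCF consensus, the element of a factor that organises chromatin loops.
Mef2c, downstream peak (chr13:83715061-83715280, plus strand): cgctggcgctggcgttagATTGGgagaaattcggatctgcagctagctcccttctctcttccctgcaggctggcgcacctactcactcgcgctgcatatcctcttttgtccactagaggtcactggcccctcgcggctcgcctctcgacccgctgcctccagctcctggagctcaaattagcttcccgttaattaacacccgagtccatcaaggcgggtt
Mef2c, intronic peak (chr13:83654981-83655140, plus strand): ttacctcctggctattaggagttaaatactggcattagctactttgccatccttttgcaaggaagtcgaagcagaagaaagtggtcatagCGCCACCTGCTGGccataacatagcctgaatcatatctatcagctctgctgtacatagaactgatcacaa
The centre of the CTCF consensus was in a footprint in both animals, and such a match occurred in 5.85% of all peaks in replicate 1 and 6.93% in replicate 2. The downstream peak held 1 CCAAT box, with its centre in a footprint in replicate 1 and not in replicate 2.

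Mef2a had 17 peaks in replicate 1 and 13 in replicate 2 over a territory of 241.7 kb, a density near the middle (45.9% and 40.6% of genes had a lower one). Long parts of its body had no peak found in both animals, and 8 of the 17 and 6 of the 13 peaks had Mef2a as their nearest coding gene. The others gathered at the 3′ end, where the neighbour Lysmd4 has a promoter peak of 18.02 in replicate 1 and 11.3 in replicate 2. The tallest distal peak, at chr7:67228481-67228660, 2.50 kb past the 3′ end of Mef2a and inside Lysmd4, had 8.24 in replicate 1 and 5.68 in replicate 2. An intronic peak at chr7:67259961-67260120 had 3.64 in replicate 1 and 3.002 in replicate 2. A flanking peak at chr7:67199521-67199680, with 4.395 in replicate 1 and 2.24 in replicate 2, held a CTCF consensus with its centre in a footprint in both animals.

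Mef2b lies in a gene-dense stretch, and its 19 peaks in replicate 1 and 16 in replicate 2 belonged largely to neighbours. Mef2b was the nearest coding gene for 4 and 3 of them, and 6 and 5 lay in promoter windows of other genes, among them Ncan, which encodes the brain matrix proteoglycan neurocan, Nr2c2ap, Tmem161a and Slc25a42. The 74 and 57 footprints in its territory were denser than in 86.3% and 86.9% of genes. Its tallest distal peak, at chr8:70216621-70216820, had 4.16 in replicate 1 and 3.26 in replicate 2 and lay beyond the Slc25a42 promoter. Another, inside Slc25a42 at chr8:70200261-70200480, had 2.02 in replicate 1 and 1.83 in replicate 2. A peak in the last part of the gene, at chr8:70166821-70167020, had 3.66 in replicate 1 and 1.51 in replicate 2 and held a CTCF consensus with its centre in a footprint in both animals.

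**Figure D2:**
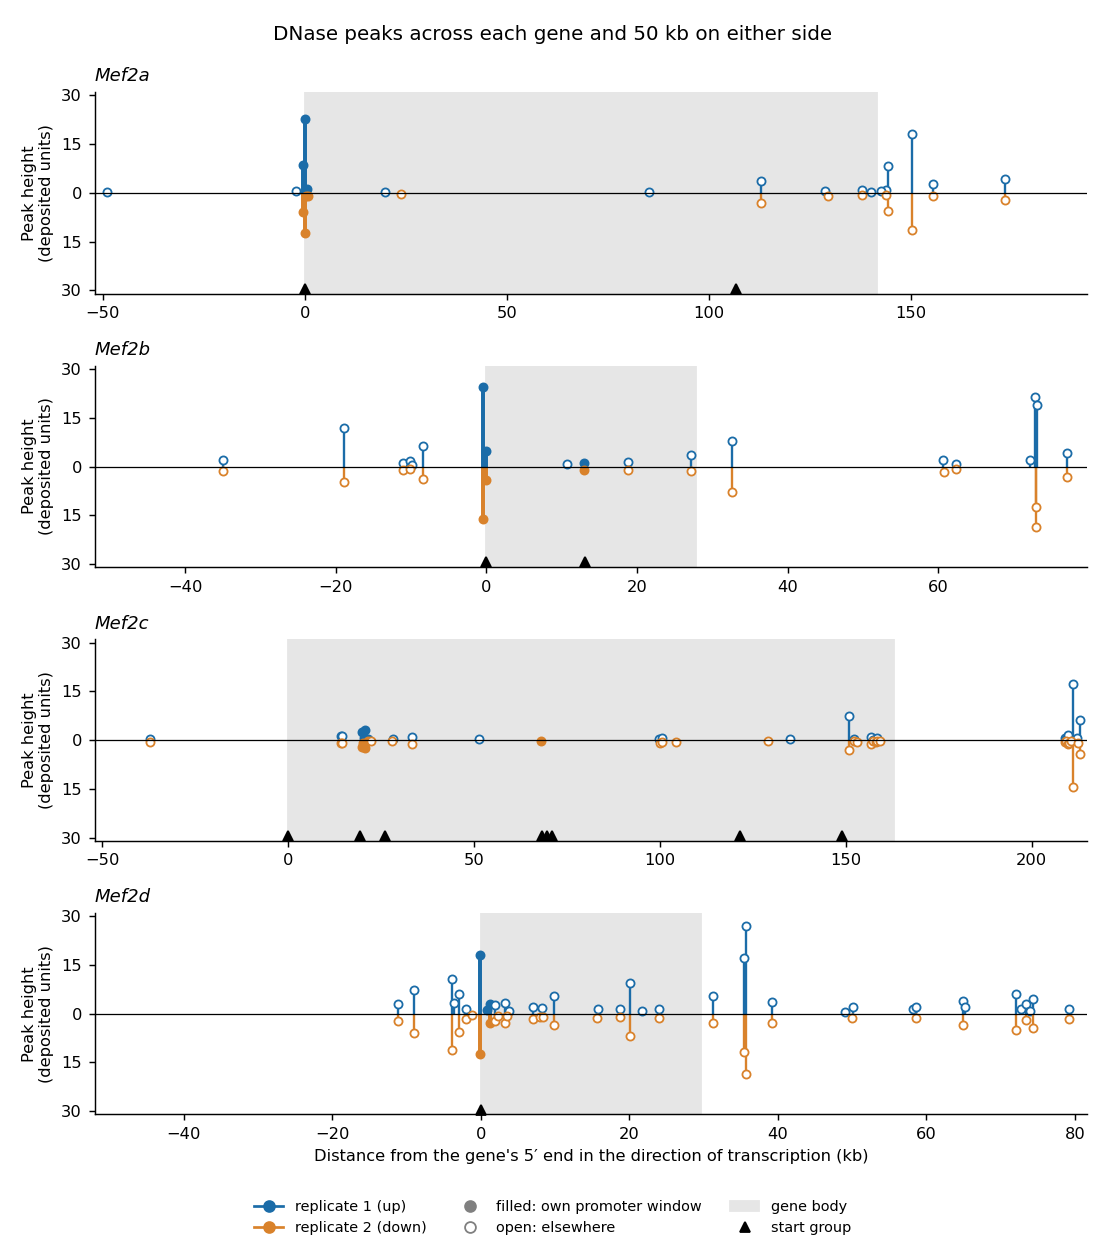
Height of each peak (vertical axis, deposited units; replicate 1 upwards, replicate 2 downwards) against distance from the 5′ end of each gene in the direction of transcription (kb), with 50 kb on each side. Filled points are in the gene's own promoter windows, open points elsewhere, grey marks the gene body and triangles the start groups. The tallest point is at the promoter in Mef2a, is shared with neighbours in Mef2b, lies 47.98 kb past the gene in Mef2c and 5.935 kb past it in Mef2d; both animals give the same tall peaks, except that in replicate 2 the tallest Mef2b point is the 18.8 of the Slc25a42 promoter.

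The mean numbers of peaks per territory were 15 ± 2.83 for Mef2a, 17.5 ± 2.12 for Mef2b, 28.0 ± 4.24 for Mef2c and 33.5 ± 3.54 for Mef2d (SD, n = 2). The lower pair and the upper pair stood apart by more than their SDs, and within each pair the SDs overlapped. This order did not hold under other definitions: with only peaks above the median height of their list the means were 9.5 for Mef2a, 15.5 for Mef2b, 10 for Mef2c and 31 for Mef2d, and with 200 kb on each side Mef2b, at 67.5, exceeded Mef2c, at 64. Territories differ in length, and per length Mef2b had more peaks than Mef2c in both animals (14.9 against 9.50 per 100 kb in replicate 1, 12.5 against 11.8 in replicate 2). Peaks found in both animals made up 58.8% of the Mef2a peaks of replicate 1 and 84.6% of those of replicate 2; the shares were 84.2% and 100% for Mef2b, 92.0% and 74.2% for Mef2c, and 75.0% and 90.3% for Mef2d. Over all peaks they were 65.8% and 80.5%. Unshared peaks had a lower median height than shared ones in each territory that held any. In the Mef2a territory it was 0.417 in replicate 1 and 0.602 in replicate 2, against 4.02 and 2.24 for shared ones. In the Mef2d territory it was 1.21 in replicate 1, against 3.43 for shared ones, and so still above the 0.764 median of all peaks there.

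**Figure D3:**
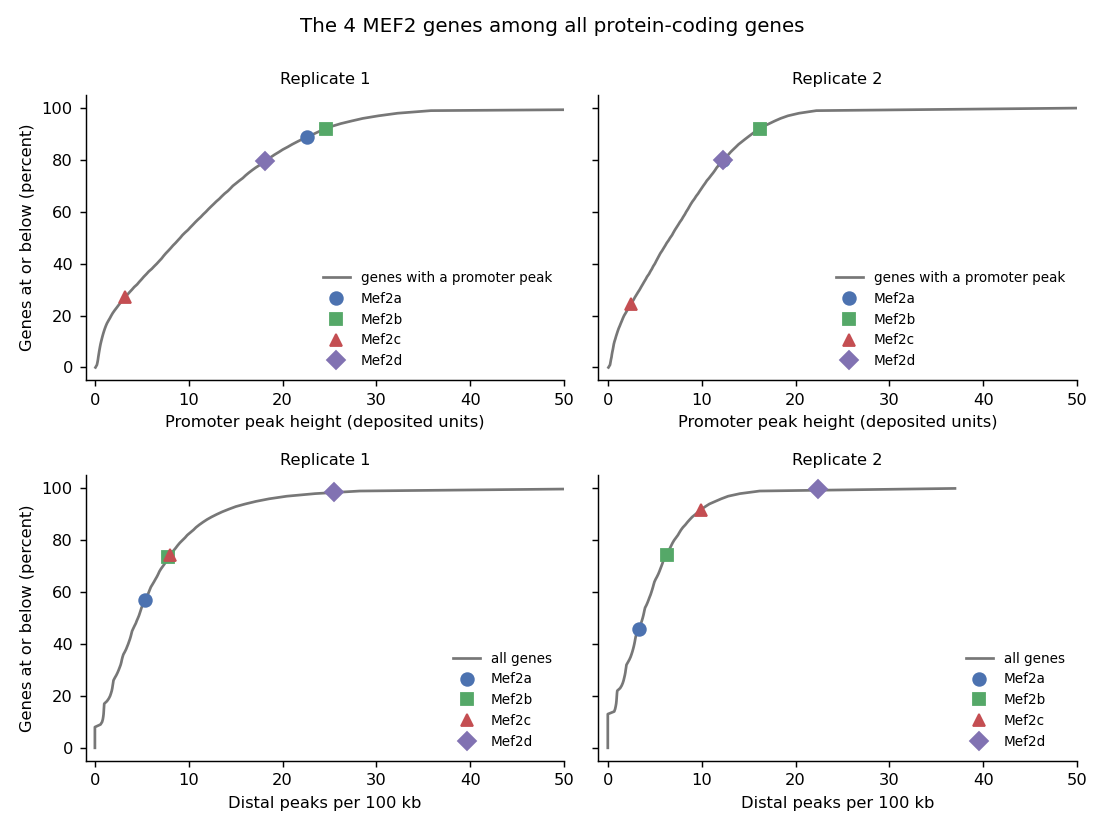
Cumulative share of genes (vertical axis, percent) by promoter peak height among genes with a promoter peak (top, deposited units) and by distal peaks per 100 kb among all genes (bottom), in replicates 1 and 2, with the 4 MEF2 genes marked. Mef2c is low on the height curve and Mef2d at the top of the density curve in both animals; in replicate 2 the heights of Mef2a and Mef2d, 12.32 and 12.29, fall on one point.

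The MEF2 consensus was looked for in all peaks of the 4 territories. It was present in 3 of 97 peaks in replicate 1 and 2 of 91 in replicate 2, against 0.969% and 1.58% of all peaks. With so few sites these shares do not tell the territories from other peaks. Beside the site at the Mef2a start, Mef2c had a pair of consensus sites in 1 intronic peak, of height 0.401 in replicate 1 and 0.978 in replicate 2. They are shown on the plus strand with 10 bases on each side.
Mef2c intron, first site (chr13:83603975-83603984): tggcagttgcCTAAAAATAGaaaactgctt
Mef2c intron, second site (chr13:83603997-83604006): aactgcttaaCTAAAAATAGcctggctctc
Neither had its centre in a footprint in either animal; the second touched the first base of a footprint that began at 83604006 in replicate 2. The remaining site was in a peak at -11.09 kb from the 5′ end of Mef2b, of height 0.970 in replicate 1, and the smaller peak there in replicate 2 did not hold it.

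The genes around the family in its pathway were read from 4 lists. All 17 of 17 MEF2 regulators had a promoter peak in both animals. The tallest in both animals were Hdac4, a class IIa deacetylase that binds MEF2, with 42.9 in replicate 1 and 24.8 in replicate 2, and Ppp3ca, a catalytic subunit of calcineurin, with 42.4 and 25.8. Next came Mapk14, which encodes p38 alpha, in replicate 1 (31.9, and 16.4 in replicate 2) and Ncoa2, a nuclear receptor coactivator, in replicate 2 (18.8, and 31.4 in replicate 1). The median of the list was 18.03 in replicate 1 and 12.7 in replicate 2, against 2.81 and 1.97 over all protein-coding genes with those lacking a peak at 0. Promoters of the genes that restrain MEF2 and of those that activate it thus both carried peaks, with low ones on each side. Hdac9, another class IIa deacetylase, had 0.916 in replicate 1 and 1.42 in replicate 2, and Camk4, a CaM kinase, had 4.75 and 2.82.

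All 4 of 4 MADS-box relatives and partners had a promoter peak in both animals: Srf, the founding MADS-box factor of the serum response, had 15.7 in replicate 1 and 12.8 in replicate 2, and its coactivators Mrtfa, Mrtfb and Myocd had 22.8, 10.4 and 0.927 in replicate 1 and 18.2, 4.78 and 0.543 in replicate 2. Of known neuronal MEF2 targets, 10 of 10 had a promoter peak in both animals, with Jun at 32.3 and 20.3, Egr1 at 27.02 and 16.1, and Klf6 at 25.8 and 19.5 in replicates 1 and 2. Of known muscle targets, 3 of 10 did. These were Xirp1, a striated muscle actin-binding protein, with 14.2 in replicate 1 and 9.17 in replicate 2, Mb (myoglobin) with 1.15 and 0.820, and Myl2 (a cardiac myosin light chain) with 1.24 and 0.464. Ckm, Myh6, Myl1, Myog, Nppa and Smyd1 had none in either animal, and Des had 0.775 in replicate 1 and none in replicate 2. With only peaks above the median height of their list, 1 of the 10 muscle targets kept a promoter peak in both animals. The lists were drawn up with earlier results of these data known, and the counts describe them beside the 62.9% of all genes.

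**Figure D4:**
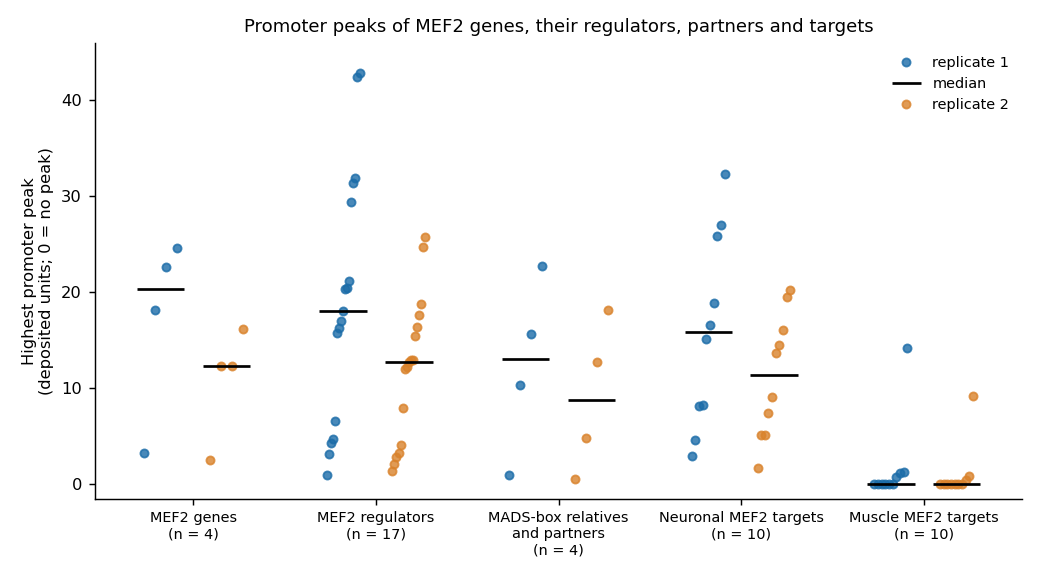
Height of the tallest promoter peak (vertical axis, deposited units, 0 where there is none) of each gene in 5 sets, with replicates 1 and 2 side by side and the median as a bar. The regulators and neuronal targets reach both below and above the range of the MEF2 genes in each animal, and the muscle targets lie near 0 apart from Xirp1 at 14.2 and 9.17.

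The genes most like each member were sought over 4 values, the log2 promoter height and the log2 of 1 plus the number of distal peaks in each animal, by Euclidean distance. The 3 nearest were Onecut2, Lrrc61 and Zfp703 for Mef2a (0.0430 to 0.181), Swsap1, Lin37 and Cttnbp2nl for Mef2b (0.0630 to 0.0906), Cacna2d1, Robo1 and Chst11 for Mef2c (0.199 to 0.289), and Prkca, Cadm1 and Btbd3 for Mef2d (0.203 to 0.213). The median distance of all genes was 2.36 for Mef2a and 3.70 for Mef2c. Within the family, Mef2a and Mef2b were 0.539 apart and Mef2b and Mef2c 4.4. The Mef2b height used was that of the window shared with Rfxank and Borcs8, 24.6 in replicate 1 and 16.2 in replicate 2. The distances and nearest genes of Mef2b therefore rest on a window that is not its own. Mef2a and Mef2c, without that limit, were 4.01 apart, so the family does not share 1 pattern. Cacna2d1, a calcium channel subunit, had a promoter height of 3.62 in replicate 1 and 2.68 in replicate 2 with 22 and 26 distal peaks. Prkca, a protein kinase C gene, had 17.7 and 11.4 with 31 and 32 distal peaks.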

How the data were processed

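DNase-seq of cerebellum from 2 mice, in 1 group, was read from the files the authors deposited per animal, on mm10 per the labels. Which aligner and which callers made the peaks and footprints is not given in the sources used here. Peak height is a signal that the authors deposited with each peak; its scaling is not stated and the depth is unknown, so no interval was computed. The longer of the 2 deposited peak lists was used. The authors' deposited false discovery rates were treated as a p-value and are listed below 0.05. Each footprint has 1 deposited p-value entry, 0.01, the same for all, so only positions were used.

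Genes came from GENCODE M21 on GRCm38 and sequences from the RefSeq copy of that assembly. A peak counted with an overlap of 1 base. Each member's start groups, its 3 tallest distal peaks found in both animals, the 3 tallest promoters in either animal and the genes lacking a peak in the regulator, partner and target lists, and the 3 nearest genes are named. A few further peaks, and all motifs other than the MEF2 consensus, were chosen after values or sequences were seen. The members and lists were chosen with earlier results of these data known. The older symbols Mkl1 and Mkl2 were matched to Mrtfa and Mrtfb through RefSeq synonyms. Python 3.11.15, numpy 2.4.6, pandas 2.3.3 and matplotlib 3.10.9 were used, and the interval and motif functions were tested on simulated data. Alternatives covered window, flank, list, height, overlap, start set, consensus and each animal alone.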

Additional observations from a re-analysis of the deposited data

How the results depend on the processing

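All 4 genes kept a promoter peak in both animals under each alternative tried. Counts of peaks moved with the definition of the territory, as its length sets them. In the gene body alone the mean was 7.5 for Mef2a, 4.5 for Mef2b and 13.5 for Mef2d, and with 10 kb on each side it was 8 for Mef2b. With 200 kb on each side it was 40.5 for Mef2a, 67.5 for Mef2b, 64 for Mef2c and 74 for Mef2d. The shorter peak list gave 9.5 for Mef2a, and peaks above the median height of their list gave 9.5 for Mef2a and 10 for Mef2c. Peaks whose nearest coding start was the member's numbered 7 for Mef2a and 3.5 for Mef2b. The share of peaks with the MEF2 consensus was 4.396% in gene bodies and 1.438% with 200 kb. Mean footprints were 9.5, 9 and 42 in the bodies of Mef2a, Mef2b and Mef2d, 29.5 for Mef2b with 10 kb, and 103, 222.5, 164 and 245.5 with 200 kb for Mef2a, Mef2b, Mef2c and Mef2d. The mean shared share was 90% for Mef2a with the shorter list and with peaks above the median height, and 80.21% for Mef2b with the shorter list. Muscle targets with a promoter peak in both animals fell to 1 when only peaks above the median height counted. Of 142 alternative values, 115 stayed within 1.5 times the reported value (counts of genes, peaks and footprints) or within 1 SD of it (heights and shares), and 27 did not. Many counts that met the first rule still moved by more than the SD of the animals, such as Mef2c peaks, 20 in the gene body. Either animal alone lay within 1 SD of the mean, which n = 2 makes certain. No paired analysis was possible because there was 1 group. With 2 animals and unstated scaling and depth, a height or count that differs between the animals cannot be assigned to the animal or to the library, and a gene without a peak was not detected as accessible, which does not show that it was closed.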
